A study of Homo sapiens with 6 samples.

Results

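The mRNAs of 28 proteins of the small (40S) ribosomal subunit were followed through 6 libraries of reverse transcriptase (RT) stops from U2OS cells, an established human osteosarcoma line. The members were taken by gene symbol, 27 RPS genes and FAU, and each was represented by 1 RefSeq transcript that was present in all 6 libraries, out of 15731 genes. Reverse transcriptase halts at a folded G-quadruplex in the RNA (rG4) and next to bases modified by dimethyl sulfate (DMS), and the libraries hold the number of halted cDNAs at each transcript nucleotide with at least 3 of them. By the labels, poly(A)-selected RNA without DMS was reverse transcribed in 150 mM K+ (library labelled K+) or in 150 mM Na+ (library labelled Na+). The file names of these libraries assign the cations the other way round. RNA refolded in vitro was treated with DMS in 150 mM K+ or in 150 mM Li+. Cells in regular medium (unstressed) and cells kept for 2 h in Hank's balanced salt solution (starved) were exposed to DMS at 8% over 5 min, and all 4 DMS libraries were reverse transcribed in 150 mM K+. Each condition is a single library without a replicate, so no test between conditions was possible, the intervals below cover counting error only, and a condition cannot be told apart from the library it was measured in.

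Small subunit proteins assemble with the 18S rRNA into the particle that scans the mRNA leader, selects the start codon and decodes. Their mRNAs are abundant, short and efficiently translated in growing cells, and most begin with a C followed by a run of pyrimidines, the 5' terminal oligopyrimidine (TOP) motif. TOP mRNAs leave polysomes when nutrients run out and mTOR activity falls, and LARP1 binds their capped starts and protects the mRNAs. An rG4 stacks G tetrads around a central K+ ion, and Li+ or Na+ hold it less well. DMS modifies unpaired A and C at their Watson-Crick faces and also reacts with the N7 of G, a position that takes part in the tetrads.

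The starts of the matched transcripts are shown because the nucleotides behind the cap carry the TOP motif, with the leading pyrimidines in capitals. All coordinates are on GRCh37 (hg19). In total 20 of the 28 matched GENCODE transcripts (71.4%) began with a C in a run of at least 5 pyrimidines, against 5.51% of all 10071 matched coding transcripts, and the longest run was the 12 pyrimidines of RPS21. Another 5, RPS3, RPS4X, RPS24, RPS26 and RPS28, began with a purine in the annotation used here.
RPS9, chr19:54704726-54704745, plus strand: CTCTTTCTCagtgaccgggt
RPS12, chr6:133135708-133135727, plus strand: CTCTTTCCCTgccgccgccg
RPS14, chr5:149829283-149829302, minus strand: CTCTCTTTCCggtgtggagt
RPS21, chr20:60962159-60962178, plus strand: CCTTTCTCTCTCgcgcgcgg
RPS2, chr16:2014808-2014827, minus strand: CTTCTTTTCCgacaaaacac
RPS29, chr14:50053075-50053094, minus strand: CTTTTacctcgttgcactgc
RPS28, chr19:8386380-8386399, plus strand: actcctctccgccagaccgc

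The coding stretches of RPS9 and RPS2 around stops at G that differed between the libraries without DMS, and of RPS14 around a strong stop that did not, are shown with runs of at least 3 G in capitals. The RPS9 stretch covers nt 570 to 641 of the transcript, the end of the open reading frame in exon 5 of 5. The RPS2 stretch covers nt 38 to 100 near the start of the open reading frame, with the stop in exon 2 of 7. The RPS14 stretch covers nt 446 to 508 in exon 5 of 5.
RPS9, chr19:54711372-54711443, plus strand: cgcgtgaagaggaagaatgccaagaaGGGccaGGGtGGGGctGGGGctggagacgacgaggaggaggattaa
RPS2, chr16:2014550-2014612, minus strand: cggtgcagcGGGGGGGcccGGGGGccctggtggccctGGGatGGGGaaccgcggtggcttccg
RPS14, chr5:149823853-149823915, minus strand: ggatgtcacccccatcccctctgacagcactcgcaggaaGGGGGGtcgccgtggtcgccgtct
RPS9 was the 1 member whose coding sequence held 4 runs of at least 3 G that were 1 to 7 nt apart, a pattern found in 6.32% of the 10071 matched coding sequences and in 0.157% of their 45-nt windows that end at a G. In the matched transcripts the 3' UTRs of RPS19 (1548 nt) and RPS23 (2789 nt) held this pattern as well. A match of letters is a description and not a folded structure.

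The listed stops summed to between 12999691 in the unstressed library and 35371061 in the library labelled K+, and the starved library was 1.85 times as deep as the unstressed one. Each member had between 1645 and 153458 stops in a library. The labels of the libraries without DMS contradict the names of their files, which assign K+ and Na+ the other way round. The labels were followed, and results at stops without DMS are given by the label of each library. Of 8 mesenchymal and osteosarcoma marker genes 7 were listed in every library, with COL1A2 at 0 in all 6, whereas 8 markers of other cell types summed to between 9 and 88 stops, with KRT5, CD3E, ALB and INS at 0 in all 6. At least 90% of the span from the first to the last listed nucleotide was listed for 19 members. The other 9 members had long unlisted stretches, down to 15.8% of the span listed for RPSA. RPSA, RPS10 and RPS26 had the lowest shares of stops, and their values are uncertain. Processed pseudogenes can take unique mapping away, which was not measured for any member.

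Starved cells held a larger part of their RT stops on small subunit protein mRNAs than unstressed cells. The 28 members together took 3.73% of all listed stops without DMS when labelled K+ and 3.74% when labelled Na+, and 3.89% (K+) and 3.70% (Li+) in vitro. They took 5.40% in unstressed cells (95% Wilson interval 5.39 to 5.41) and 8.60% in starved cells (8.59 to 8.62), a 1.59-fold difference. The starved library gave the higher share for 22 members and the unstressed library for 6. A difference of at least 1.5-fold, the size that was called, was reached upwards by 16 of 28 members, while 28.4% of the 5883 genes with at least 100 stops in both libraries reached it. It was reached downwards by 1 member, while 42.9% of all genes reached it. The median log2 ratio of share was 0.69 over the members and -0.26 over all genes, with the widest counting half-width of any member at 0.074 (RPSA). More copies of an mRNA and more stops per copy cannot be told apart in these counts.

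**Figure D1:**
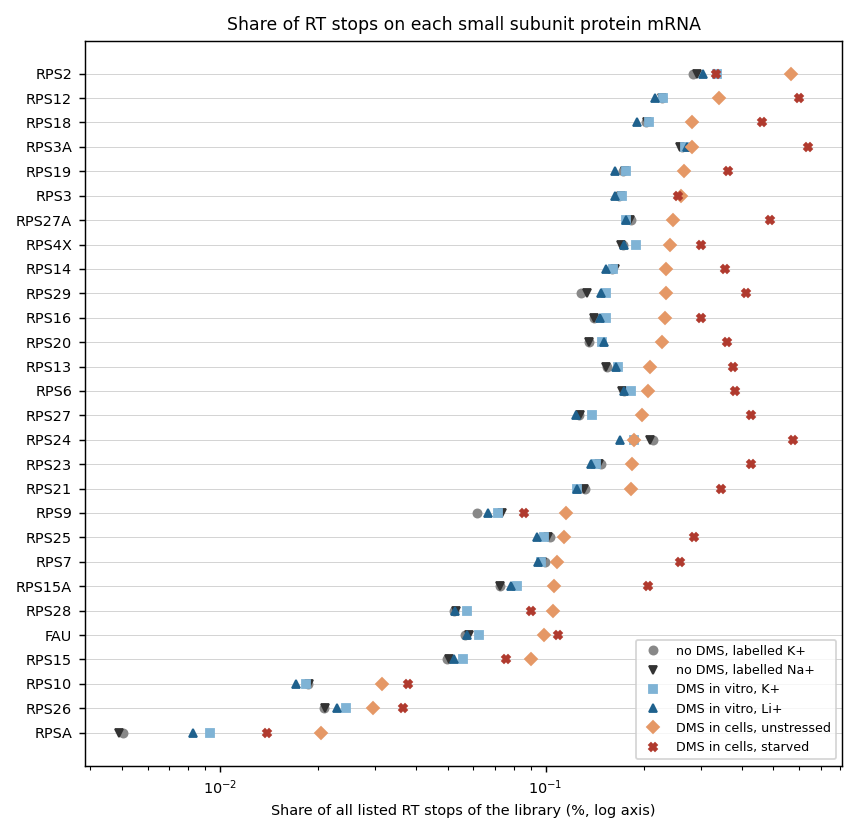
Share of all listed RT stops of a library (%, log axis) that fell on each of the 28 mRNAs, with 1 symbol per library and the mRNAs ordered by their share in unstressed cells. The 4 libraries from RNA that was not modified in cells lie together for most mRNAs, the unstressed library lies to the right of them for all mRNAs but RPS24, and the starved library lies further right for 22 mRNAs and to the left of the unstressed library for 6, such as RPS2 (0.567% unstressed, 0.333% starved).

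RPS24, a protein of the body of the subunit and a Diamond-Blackfan anaemia gene, had the largest ratio. It held 0.214% and 0.209% of the stops in the libraries labelled K+ and Na+, 0.187% and 0.169% in the K+ and Li+ libraries in vitro, and in cells 0.187% (unstressed) and 0.575% (starved). The 5 other libraries thus lay within a narrow band and the starved library stood 3.07-fold above the unstressed one (log2 ratio 1.62 ± 0.020, counting half-width). Only 25.9% of the span of RPS24 was listed. RPS25, which several viral internal ribosome entry sites need, went from 0.114% to 0.286% (log2 ratio 1.32 ± 0.026). RPS7, a protein of the body that also binds MDM2, went from 0.108% to 0.259% (1.26 ± 0.026). RPS23, at the decoding centre and with 42.7% of its span listed, went from 0.184% to 0.426% (1.21 ± 0.020). These 4 members had the largest ratios, and RPS3A, on the platform, followed with 0.281% and 0.639% (1.18 ± 0.016).

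RPS2, which lines the mRNA entry channel, had the smallest. Its shares were 0.283% and 0.291% without DMS in the libraries labelled K+ and Na+, 0.336% and 0.305% in the K+ and Li+ libraries in vitro, and in cells 0.567% (unstressed) and 0.333% (starved). The starved value lay within the range of the in vitro libraries and the unstressed value stood above all others, 1.70-fold above the starved one (log2 ratio -0.77 ± 0.014). RPSA, the laminin receptor homologue on the platform, held 0.0204% in unstressed and 0.0139% in starved cells (-0.55 ± 0.074). RPS9, at the entry channel, held 0.116% and 0.0858% (-0.43 ± 0.030). RPS15, a head protein near the decoding centre, held 0.0901% and 0.0754% (-0.26 ± 0.034). Only RPS2 among these 4 passed 1.5-fold. Between the extremes, RPS27, RPS27A, RPS15A, RPS21, RPS6, RPS13, RPS29, RPS12, RPS18, RPS20 and RPS14 passed 1.5-fold upwards with log2 ratios from 1.11 (RPS27) down to 0.60 (RPS14). With stops at G and U only, RPS21 (0.58), RPS18 (0.55), RPS14 (0.43) and RPS20 (0.30) no longer did, and 12 members were called higher (26.6% of all genes). In that setting RPSA (-0.74), RPS28 (-0.60) and RPS9 (-0.59) passed 1.5-fold downwards along with RPS2, as did 46.2% of all genes. RPS6, the S6 kinase substrate of the mTOR pathway, was called higher with all stops, with 0.206% and 0.382% (0.89 ± 0.020). With all stops, RPS19, RPS16, RPS4X, RPS26, RPS10 and FAU were higher in starved cells by less than 1.5-fold, from 0.46 (RPS19) down to 0.15 (FAU), and RPS3 (-0.02) and RPS28 (-0.22) lay slightly lower.

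Grouped by the place of the protein in the subunit, the mRNAs had overlapping ranges of log2 ratio, from -0.77 to 1.21 (entry channel and decoding centre), -0.55 to 1.18 (platform and mRNA exit), -0.26 to 1.32 (head and beak) and 0.31 to 1.62 (body), and no difference between places was tested. The 5 mRNAs of entry channel and decoding centre proteins had a median log2 ratio of -0.02, with 1 of 5 called higher and 1 lower. The 8 mRNAs of the platform and mRNA exit side had a median of 0.73 with 5 called higher. The 10 mRNAs of the head and beak had a median of 0.69 with 6 called higher, and the 5 of the body a median of 0.95 with 4 called higher. Over all genes 28.4% were called higher and 42.9% lower, so the entry channel and decoding centre group, with 1 of 5 each way, did not stand apart upwards. Within the first group RPS23 stood at 1.21 and RPS3, a KH-domain protein at the entry site that is also a DNA repair endonuclease, at -0.02. The medians went with GC content, whose own median was 57.5% in the entry channel and decoding centre group and 50.0%, 51.1% and 47.4% in the others. Relative to genes of like GC content, as described below for all members, the medians were 1.43, 1.43, 1.75 and 1.35 in the same order, with 5 of 5, 7 of 8, 9 of 10 and 5 of 5 at least 1.5-fold above the trend, where 26.2% of all genes lay.

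The change of share was closely tied to base composition in the whole series. Over the 5644 genes with a matched sequence, the log2 ratio fell from a median of 1.20 in the tenth with the lowest GC content to -2.34 in the tenth with the highest. GC content and log2 ratio had a Spearman correlation of -0.79 over all genes and of -0.80 over the 28 members (Pearson -0.78 and -0.75), where the points share their library, depth and base composition. All 6 members with a lower share in starved cells had a GC content of at least 49.8%, and the 14 members below that all had a higher share. At equal GC content the members stood above other genes. Relative to a running median over genes of like GC content, all 28 members lay above the trend, 26 of them by at least 1.5-fold, while 26.2% of all genes did so. The median distance was 1.49 on the log2 scale for the members. It was 1.39 for 47 mRNAs of the large ribosomal subunit, 43 of them by at least 1.5-fold, 0.52 for 15 other TOP mRNAs and -0.15 for 20 housekeeping mRNAs without a TOP motif. The mesenchymal and osteosarcoma markers lay the other way, with a median of -0.89 for the 6 that were tested and 4 of them at least 1.5-fold below the trend (25.4% of all genes). Without the correction the median of these markers was -1.88, with 5 of 6 called lower. The uncorrected median was 0.77 for the large subunit mRNAs (29 of 47 called higher, 5 lower). It was 0.31 for the other TOP mRNAs (4 of 15 higher, 2 lower) and -1.30 for the housekeeping mRNAs (0 of 20 higher, 12 lower). Over all genes 28.4% were called higher and 42.9% lower. RPS2 had a GC content of 59.7% and lay 1.43 above the trend of its GC content, which was -2.20, so that its direction turned with this correction. RPS19, whose loss causes Diamond-Blackfan anaemia, lay furthest above the trend, at 2.51, and RPSA nearest to it, at 0.15. The correction did not remove the tie to GC content among the members. Their distance from the trend had a Spearman correlation of 0.68 with GC content (Pearson 0.66, n = 28), now in the opposite direction, so the order of the members by distance and the turned direction of RPS2 still went with GC content. The correction was chosen after the data had been seen.

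**Figure D2:**
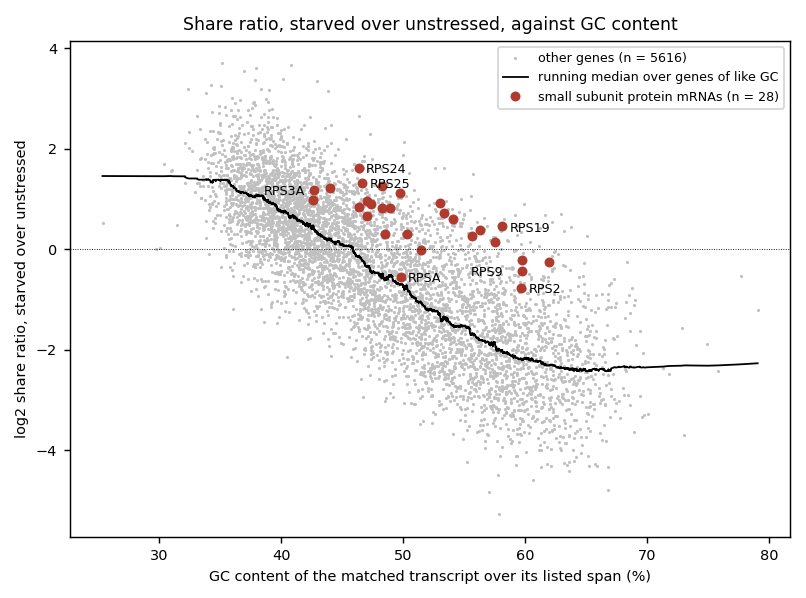
The log2 ratio of share, starved over unstressed, against the GC content (%) of the matched transcript over its listed span, for the 28 mRNAs (red) and 5616 other genes (grey), with a running median over 300 genes (black line). The ratio falls with GC content in both, and all 28 red points lie above the line, RPSA by 0.15 and RPS19 by 2.51.

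The members took a larger share in cells than in vitro as well. Relative to the in vitro K+ library, the share was at least 1.5-fold higher for 11 of 28 members in unstressed cells (20.6% of all genes) and for 22 of 28 in starved cells (21.3% of all genes), and both comparisons share the in vitro library. The median log2 ratios were 0.54 and 1.15, against -0.02 and -0.37 over all genes. RPS24 had the lowest value in unstressed cells, 0.0033, and RPS2 the lowest in starved cells, -0.01. The members differed less within the pairs of libraries made without DMS or in vitro, which hold no difference between separately treated cells and so give no replicate error for the cell libraries. Between the libraries labelled Na+ and K+ no member moved by 1.5-fold and the member furthest from 0 was RPS9, at -0.26 in K+ relative to Na+. Between the in vitro libraries the members ranged from -0.02 (RPS3A) to 0.17 (RPSA) in K+ relative to Li+.

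Levels per length ranked the mRNAs differently from total shares. Per 1000000 listed stops and 1000 listed nucleotides, RPS29, a small zinc-finger protein of the head, reached 8176 (unstressed) and 14422 (starved). RPS12 had 6901 and 12153, RPS2 had 6303 and 3704, and RPS27, a zinc-finger protein of the platform, had 6071 and 13115. RPS24 had 4071 and 12489. At the low end RPS26, which contacts the mRNA at the exit site, had 1018 and 1259, RPS10, at the tip of the head, had 1042 and 1255, and RPSA had 1158 and 791. RPS29, RPS12, RPS27 and RPS24 were thus the highest members per length in starved cells, and RPS2 had left this group.

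DMS placed most stops on A and C, and every member had a lower such share in the starved library. Without DMS a median of 52.8% and 52.4% of a member's stops lay at A or C in the libraries labelled K+ and Na+. The medians were 77.3% (K+) and 77.0% (Li+) for RNA modified in vitro, 83.1% for unstressed cells (range 77.0% to 87.8%) and 72.7% for starved cells (62.4% to 80.8%). All 28 members lay higher in unstressed cells than in vitro in K+, and all 28 lay lower in starved cells than in vitro in K+, as did 89% and 92.2% of the 5804 genes with at least 100 stops in all 6 libraries. Over all listed stops the A or C share was 83.9% in vitro in K+, 88.4% in unstressed and 78.2% in starved cells. All 28 were at least 5 percentage points lower in starved than in unstressed cells, as were 84.7% of all genes, so most of the library shared this difference. The median difference was -10.5 points for the members and -9.37 for all genes, whose own medians were 94.6% and 85.2%.

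Most of this difference was at C, and it ran through the whole library. Between unstressed and starved cells the C share of a member's stops decreased by a median of 8.59 points, with all 28 members lower, and the A share decreased by 2.30 points with 23 lower. The G share was higher by a median of 7.81 points and the U share by 2.57 points, each in all 28 members. Over all listed stops of the unstressed and starved libraries, C held 24.8% and 14.6%, G held 9.02% and 16.2%, U held 2.63% and 5.58%, and A held 63.6% in both, so the counts of members at C, G and U are no result particular to them. RPS24 had the highest A or C share in unstressed cells, 87.8%, followed by RPS15A and RPS7 at 86.8% each and RPS26 at 86.6%. RPSA (77.0%), RPS28 (77.6%), RPS3 (78.6%) and RPS14 (80.5%) had the lowest. The largest differences were those of RPSA (-14.7 ± 2.3 points, counting half-width), RPS29 (-13.3 ± 0.51), FAU (-12.8 ± 0.85) and RPS14 (-12.8 ± 0.54). FAU encodes the ubiquitin-like protein fused to RPS30. The smallest were those of RPS26 (-5.80 ± 1.4), RPS27 (-7.23 ± 0.49), RPS25 (-7.25 ± 0.67) and RPS20 (-7.79 ± 0.52). RPS9 stood apart once, in the library labelled Na+, where 42.9% of its stops lay at A or C against 50.9% in the library labelled K+.

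**Figure D3:**
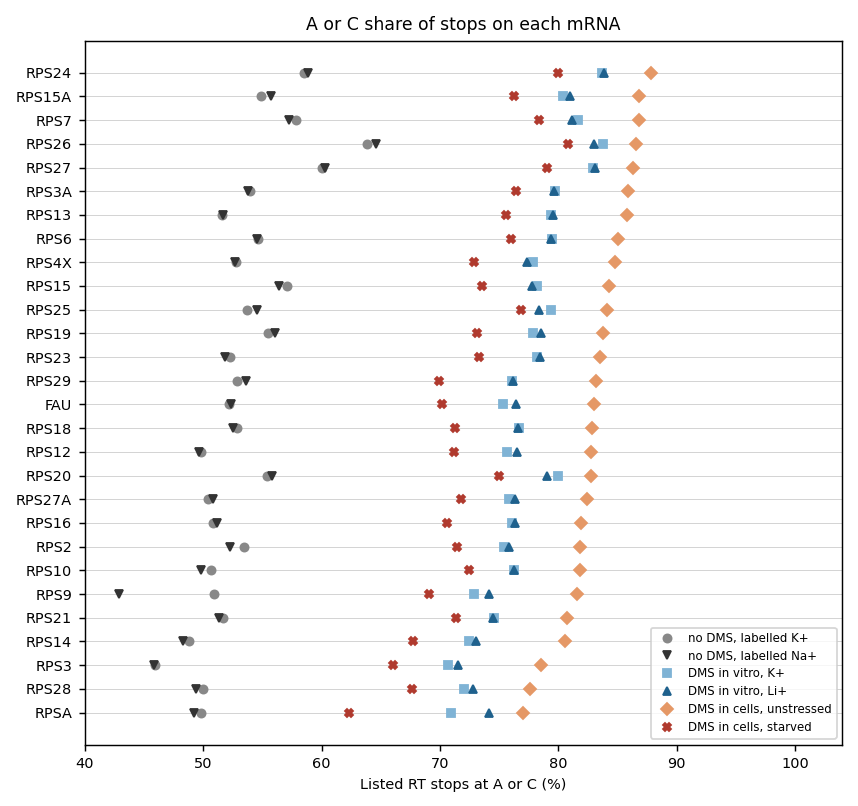
Percentage of each mRNA's listed RT stops that lay at A or C, with 1 symbol per library and the mRNAs ordered by the value in unstressed cells. Libraries without DMS lie near 50%, the unstressed library lies to the right of the in vitro libraries and the starved library to their left for all 28 mRNAs, and RPS9 in the library labelled Na+ (42.9%) lies furthest left.

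The strongest single position was an A in 28 of 28 members in unstressed cells and in 27 of 28 in starved cells, as it was in 89.3% and 88.7% of the same 5804 genes. In vitro it was an A in 25 members in K+ and 27 in Li+ (85.3% and 88.3% of genes), so these counts lie near those of most genes. Without DMS it was an A in 16 and 15 members in the libraries labelled K+ and Na+ (46.5% and 26.2% of genes) and a G in 7 in each. The exception in starved cells was RPS14, in which a G at nt 490 was strongest. The same position was strongest in unstressed and starved cells in 5 of 28 members and in 10.8% of genes. Starved cells shared it with the library labelled K+ in 4 members (6.06% of genes) and with the library labelled Na+ in 5 (5.46%). Unstressed cells shared it with either in 0 members, and in 3.43% (K+ by label) and 2.48% (Na+ by label) of genes. RPS25 had its strongest stop at the A at nt 24 of its leader in vitro in K+ (275 stops) and Li+ (342) and likewise in unstressed cells (283), but at the A at nt 438 in starved cells (650). RPS20, a head protein, had its strongest stop in unstressed cells in the leader, with 817 of 29536 stops (2.77%) at nt 123, and in starved cells at nt 447 (1164 stops).

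Stops at the 5' ends of the transcripts were few in libraries that were made from cDNAs that had stopped inside an RNA fragment. In the first 10 nt of the RefSeq transcripts, 461 of the members' stops lay in unstressed (0.0657%) and 1867 in starved cells (0.0904%), and 9 members had any in both. Most of them were on RPS29, with 365 and 348 stops in the libraries labelled K+ and Na+, 385 (K+) and 451 (Li+) in vitro, and 320 (unstressed) and 1309 (starved) in cells. Many RefSeq transcripts begin upstream of the GENCODE start, by 337 nt in RPS19, where no stops can fall on the TOP sequence within 10 nt. From the RefSeq start to nt 30 of the matched GENCODE transcript, the members held 3.68% of their stops in unstressed and 4.03% in starved cells.

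Single members differed in direction at this 5' end. Of 26 members with stops to nt 30 in both libraries, 4 had a share at least 1.5-fold higher in starved cells and 5 a share at least 1.5-fold lower, while 19.1% of 983 genes were that much higher and 34.9% that much lower. RPS3 held 6.41% and 5.93% of its stops there without DMS in the libraries labelled K+ and Na+, 2.88% and 2.43% in vitro, 1.75% in unstressed and 3.91% in starved cells. RPS14, a platform protein, held 0.933% in unstressed and 1.88% in starved cells, RPS9 0.579% and 1.05%, and RPS7 0.021% and 0.032%, which rests on 3 and 20 stops. In these 4 the starved value was the higher. RPS25 went the other way, with 10.2% in unstressed and 5.84% in starved cells, as did RPS20 with 9.36% and 5.45%, RPS13 with 0.708% and 0.436%, RPS10 with 3.21% and 1.00%, and RPS26 with 0.261% and 0.114%, on 10 stops in each. The highest 5' end shares in unstressed cells were those of RPS29 (15.0%), FAU (13.5%), RPS25, RPS20, RPS27 (7.17%) and RPS18 (6.55%).

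A larger part of the stops lay in the 3' UTR in starved cells. The median member had 89.1% of its stops in the coding sequence in unstressed and 86.0% in starved cells, and 25 of 28 members were lower, as were 48% of 5571 genes. The 3' UTR share was higher in starved cells in 26 members and 0 in both libraries in the others, RPS20 and RPS24, whereas it was higher in 48.7% of these genes. The median 3' UTR share was 4.03% (unstressed) and 7.43% (starved) in cells. It was 4.94% and 4.54% without DMS in the libraries labelled K+ and Na+, and 4.89% and 4.81% in vitro. RPS10 had 43.2% and 40.6% of its stops in the 3' UTR without DMS, 32.1% and 32.3% in vitro, 20.5% in unstressed and 45.2% in starved cells, the largest difference among the members. RPS21, a small platform protein, had 9.10% in unstressed and 21.6% in starved cells, RPS28 had 38.0% and 47.2%, and RPS2 had 2.97% and 10.7%. The 5' UTR share did not move in 1 direction, with 17 members higher and 11 lower, while 21.6% of all genes were higher and 29.2% lower, and the members ranged from -12.9 points in RPS20 to 4.86 points in RPS29. The A or C share of stops was lower in starved cells in each region, with medians of 81.5% and 65.7% in the 5' UTR, 83.8% and 72.8% in the coding sequence and 89.5% and 80.4% in the 3' UTR, and its part in the shift between regions was not tested.

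**Figure D4:**
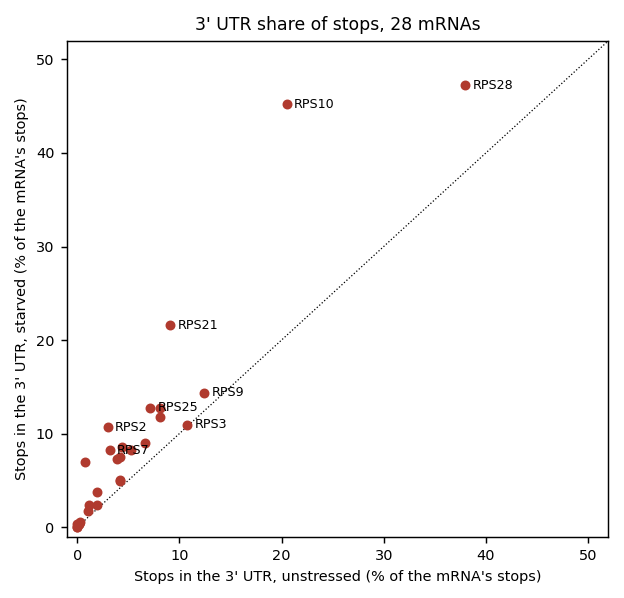
Percentage of each mRNA's listed RT stops in the 3' UTR, unstressed (horizontal axis) against starved cells (vertical axis), with 1 point per mRNA and the line of equal values dotted. No point lies below the line, RPS20 and RPS24 lie at 0 on both axes, and RPS10 (20.5% and 45.2%) lies furthest above it.

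Strong stops at G in the absence of DMS are the sign by which rG4 regions are found in such libraries. A stop was called strong when its count was at least 10-fold the mean over the transcript (E of at least 10), and cation-dependent when its E was at least 2-fold that in the other library. By the labels, 63 strong stops at G lay on 8 members in K+, and 0 of the 63 had an E that exceeded the one in Na+ by 2-fold, whereas 4.95% of 3633 genes had such a stop. In the library labelled Na+ 72 strong stops at G lay on 10 of 28 members, and 1616 of 3661 genes had any. Of the 72, 5 on RPS9, RPS2 and RPSA were at least 2-fold stronger there than in K+, whereas 38.1% of the 3633 genes had such a stop. Members with long unlisted stretches have a low mean, which raises E. RPS24 had 22 and 21 of them in the libraries labelled K+ and Na+, RPS23 had 21 and 22, RPSA 8 and 12, RPS26 4 in each, RPS10 3 and 4, RPS29 3 in each and RPS3 1 in each, all of them members with unlisted stretches. Among the 19 members with at least 90% of the span listed, 1 strong stop at G was found in K+ by label and 5 in Na+ by label, and these lay on RPS9, RPS2 and RPS14.

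RPS9 carried the strongest of these stops, within the last of the 4 G runs of the sequence printed above. At nt 614, chr19 position 54711416, 33 stops lay without DMS in K+ by label and 2418 in Na+ by label, or 0.151% (0.108% to 0.213%) and 9.80% (9.44% to 10.2%) of the stops on the mRNA. In vitro 206 stops lay there in K+ and 55 in Li+. In unstressed cells 14 and in starved cells 93 stops lay there, or 0.0932% (0.0555% to 0.156%) and 0.451% (0.369% to 0.553%). Relative to the transcript mean these were an E of 1.15 and 73.3 without DMS, 10.7 and 2.12 in vitro, and 0.74 and 3.60 in cells. The library labelled Na+ was thus 63.9-fold above the library labelled K+, and the in vitro K+ library was 5.04-fold above the Li+ library. The neighbouring G at nt 615 had 15 and 511 stops in the libraries labelled K+ and Na+, 66 (K+) and 31 (Li+) in vitro, and 14 (unstressed) and 52 (starved) in cells. The G at nt 636, in the last codon before the stop codon, had 55 and 357 stops without DMS but 29 and 52 in vitro, and 56 and 71 in cells.

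**Figure D5:**
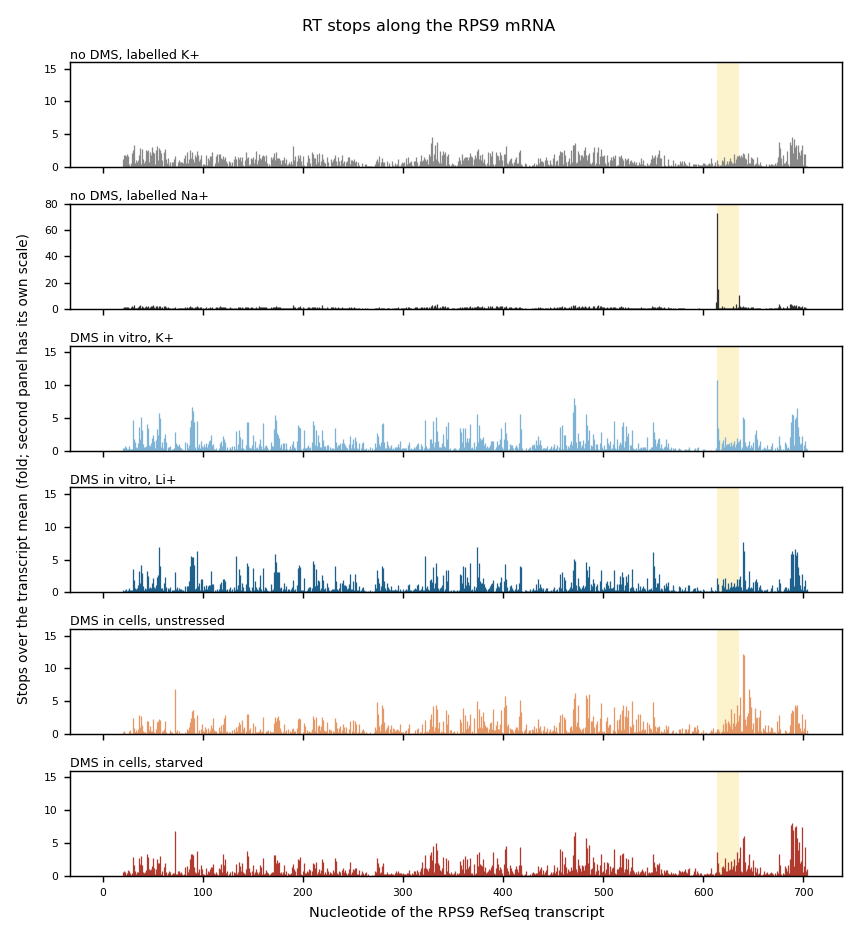
Stops along the RPS9 transcript relative to the transcript mean (fold) in the 6 libraries, with nt 614 to 636 shaded and a scale up to 80 in the second panel and up to 16 in the others. The stop at nt 614 reaches 73.3 in the library labelled Na+ and 10.7 in vitro in K+, and stays below 4 in the other 4 libraries.

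If the library labelled Na+ is taken as the K+ library, the stops of RPS9 at nt 614 and 615 and of RPS2 at nt 82 are cation-dependent and have the direction of the in vitro pair, and a folding score can be set on the scale from the in vitro Li+ library (0) to the in vitro K+ library (1). At nt 614 of RPS9 the score was -0.16 in unstressed and 0.17 in starved cells, and at nt 615 it was -0.20 and 0.36. RPSA nt 187 scored -0.21 and 1.30, from 13 and 7 stops in vitro and 5 (unstressed) and 25 (starved) in cells. With E taken over G and U nucleotides only, the scores were -0.14 and 0.11 at nt 614, -0.09 and 0.24 at nt 615, and -0.18 and 0.83 at RPSA nt 187, so that the starved scores moved by over 1.5 times at each. The 14 stops in unstressed cells limit these values, and the G share of all the members' stops was higher in starved cells (median 21.5% against 13.4%), whose part in the scores was not tested. The E in starved over unstressed cells was 4.85 at RPS9 nt 614 and 2.71 at nt 615. Strong stops at G that were not cation-dependent ranged widely in this ratio. It was 8.03 at RPS10 nt 769 and 7.82 at RPS23 nt 518, on 5 and 7 unstressed stops. It was 1.02 at RPS10 nt 706 and 0.85 at RPS23 nt 397. By the labels no position entered the score.

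RPS2 showed the same direction in the glycine-rich start of its reading frame. At nt 82, chr16 position 2014568 and coding nt 59, 30 stops lay without DMS in K+ by label and 1491 in Na+ by label (E of 0.29 and 14.8, 50.9-fold). In vitro 165 and 122 stops lay there in K+ and Li+, a 1.78-fold difference of E that is below the 2-fold needed for a score. In unstressed cells 19 and in starved cells 42 stops lay there, 0.0258% (0.0165% to 0.0403%) and 0.0525% (0.0389% to 0.071%) of the stops on the mRNA. The stop of RPS14 did not differ in this way between the libraries without DMS. It lies at the last G of a run of 6 in the sequence above. At nt 490, chr5 position 149823871, 1187 and 1437 stops lay in the libraries labelled K+ and Na+ (E of 12.1 and 15.0), and 335 (K+) and 448 (Li+) in vitro. In cells there were 144 (unstressed) and 1020 (starved), or 0.473% (0.402% to 0.556%) and 1.19% (1.12% to 1.27%) of the stops on the mRNA. Its E in starved cells was 2.51-fold that in unstressed cells, against 2.03-fold at RPS2 nt 82. The cation-dependent stop on RPSA, at nt 187, rested on 12 and 24 stops.

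The pattern of DMS stops along A and C was much alike in unstressed and starved cells. Over the A and C of a member, the Pearson correlation of log2(stops + 1) between unstressed and starved cells had a median of 0.91 over the 27 members with at least 5 stops per A or C in each DMS library, RPSA being left out, and of 0.79 over all 461 genes that passed. These correlations are across nucleotides of 1 mRNA, which share depth and base composition. The members and all genes were not matched for depth. RPS24 (0.98), RPS27A (0.97), RPS20 (0.97) and RPS29 (0.97) had the highest values, and RPS25 (0.81), FAU (0.83), RPS21 (0.84) and RPS9 (0.84) the lowest. RPS27A encodes ubiquitin fused to a ribosomal protein. RPS24, RPS27A, RPS20 and RPS29 have unlisted stretches, where both libraries are at 0, and these can raise the value. Between the in vitro libraries the median was 0.97, between in vitro K+ and unstressed cells 0.90 and between in vitro K+ and starved cells 0.92.

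The unevenness of stops over A and C, measured by the Gini index (0 when all nucleotides are equal and near 1 when few take all stops), was lower in unstressed cells than in vitro in K+ in 22 of 27 members, against 41.6% of genes. The members' median index was 0.50 and 0.49 in the K+ and Li+ libraries in vitro, 0.45 for unstressed cells and 0.47 for starved cells. Starved cells were higher than unstressed cells in 16 members and lower in 11, while 35.4% of genes were higher, with a median difference of 0.0067 against -0.02 over all genes. The unstressed library was the shallowest, and unlisted nucleotides were counted as 0. Members and genes were not matched for depth, whose part in these differences was not tested. RPS9 had 0.42 in unstressed and 0.49 in starved cells, and RPS13, a platform protein, 0.37 and 0.44, whereas RPS20 went from 0.60 to 0.55 and RPS15A, in the body, from 0.58 to 0.53.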

How the data were processed

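RT stops were measured in 6 libraries of U2OS cells, 1 for each condition. Per the labels and the study's methods, poly(A) RNA was fragmented, size-selected, reverse transcribed in K+, Na+ or Li+ (the methods name Li+ where the labels name Na+), and cDNAs that had stopped after 20 to 45 nt were sequenced and mapped with Bowtie to hg19 transcripts at unique positions. The authors deposited the count of RT stops at each nucleotide with at least 3, and the ratio of that count to the mean count of the transcript. In the files this mean is taken over nucleotides of the same base. The mean over the transcript was rebuilt from the base means, and E is the count over it. Nucleotides not listed were counted as 0. Listed counts per library ranged from 12999691 to 35371061.

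GENCODE release 44 on GRCh37 gave a sequence for 10433 (94.6%) of the 11031 transcripts that had 15 or more listed bases, where 80% or more of these bases could be placed and 97% or more of those were identical; 24 of the 28 members matched a MANE Select transcript and RPS3, RPS10, RPS24 and RPS29 another isoform. Accessions were paired with symbols through a RefSeq table of GRCh38.p14 that was used for names only. Shares were compared for genes with at least 100 stops in both libraries, base composition likewise. Wilson 95% intervals and half-widths of log2 ratios cover counting error only. The share calls were tested on simulated data. The members and lists, and the rule for the genes named (RPS9, members with strong stops at G, and the extremes of each measure), were chosen with earlier results of these data known. Alternatives are given in the closing section. Tools were Python 3.11.15 with scipy 1.17.1, pandas 2.3.3 and numpy 2.4.6, and matplotlib 3.10.9 for plots.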

Additional observations from a re-analysis of the deposited data

How the results depend on the processing

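No paired analysis was possible because each condition is a single library. The median log2 ratio of share, 0.69, became 0.83 with all stops estimated from the deposited means, 1.00 with the listing minimum of the deeper starved library raised to 6, 0.49 with stops at G and U only, 0.82 with ribosomal protein mRNAs left out of the total and 1.49 relative to the trend over GC content, where 26 members rather than 16 were called higher. That count was 12 with G and U only (26.6% of all genes). Members called lower, 1 in the report, became 0 with the raised minimum (49.3% of all genes) or the GC trend (25.4%), 4 with G and U only (46.2%) and 2 with A and C only (41.1%). The ratio of RPS2 turned from -0.77 to 1.43 relative to the GC trend. The summed share of the members became 3.99% in unstressed and 6.997% in starved cells with estimated stops, and 5.42% and 8.62% without the strongest position of each transcript. At the 5' end, the log2 ratio of starved over unstressed was 0.46 in the first 10 nt, 0.29 in the first 5 nt, 0.27 in the first 30 nt, -0.27 to nt 10 and 0.13 to nt 30 of the matched GENCODE transcripts, and 0.12 there with the raised minimum, so that no direction holds at this end. The 63 strong stops at G became 257 with E of at least 5 and 5 with E of at least 20 (256 and 5 with the library labelled Na+ taken as K+). Cation-dependent stops among them, 0 by the labels, became 2 with E of at least 5. With the library labelled Na+ taken as K+ they were 5, 6 with E of at least 5, 1 with E of at least 20, 4 with the deposited ratio and 4 with a transcript mean of at least 5, and 3 positions rather than 0 entered the folding score. Median differences of starved from unstressed cells kept their direction, at -10.6 to -10.4 points for A or C, 0.0066 to 0.0080 for the Gini index, and -2.10 and -1.67 (coding sequence), 2.13 and 1.79 (3' UTR) and 0.33 and 0.25 points (5' UTR) with and without the strongest position. The causes of these changes were not tested. Alternatives with the GC trend, A and C only, GENCODE starts and joint reassignment were chosen after seeing the data. By the labels the scoring alternatives gave no value, because no position was scored. Counts under 3 are unlisted, which limits transcripts of low depth most.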
